A study of Mus musculus with 36 samples.

Results

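The prostaglandin and leukotriene pathway was followed through 10 genes in RAW 264.7 cells, a macrophage-like mouse cell line grown from a leukaemia virus tumour. The genes were Pla2g4a, Ptgs1, Ptgs2, Ptges, Ptges2, Ptges3, Tbxas1, Ptger4, Alox5 and Alox5ap, found by symbol among the 53465 genes of the deposited tables. Each matched 1 gene, and all 10 were among the 16988 genes that passed a filter on low counts. Total RNA gave 36 libraries, 3 for each of 12 treatments, all of the wild-type line and all treated for 12 h. The groups were lipopolysaccharide (LPS, a bacterial cell wall component that activates macrophages) at 10 µg/mL together with melatonin at 0.1, 1, 10 or 100 µM or 1 mM, LPS at 10 µg/mL alone, melatonin alone at the same 5 doses, and solvent alone. Melatonin, the pineal hormone, was added 30 min before LPS where both were given, and the stated aim was to study how it acts against inflammation. Nothing in the labels states that replicates were grown as separate cultures, and the p-values thus reflect only how far replicate libraries differed, which may be technical.

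Eicosanoids are lipid signals made from arachidonate, a fatty acid that phospholipase A2 enzymes cut out of membranes. Cyclooxygenases, encoded by Ptgs1 and Ptgs2, turn arachidonate into prostaglandin H, which separate synthases convert to prostaglandin E, thromboxane and other prostanoids, and receptors such as the one encoded by Ptger4 sense these outside the cell. A parallel branch starts with the arachidonate lipoxygenase Alox5 and its membrane partner Alox5ap and leads to leukotrienes. In macrophages Ptgs2 and Ptges are textbook inflammation-induced genes, whereas Ptgs1 is usually described as constitutive.

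The libraries held 4203313 to 7590271 counts. Values below are CPM (counts scaled to a common library size) with library sizes scaled by TMM, and a gene is called changed where the edgeR quasi-likelihood test, fitted to all 36 libraries, gave an adjusted p under 0.05 over all tested genes. Macrophage identity was carried by 8 marker genes, whose summed level was 2680 to 13816 CPM, while the marker pairs of B cells, T cells, mast cells, fibroblasts, endothelial and epithelial cells summed to at most 8.78 CPM in any library. One of the 8, Mrc1, had at most 2.33 CPM in any library. A pair of libraries went against their labels in both markers and correlations: the library labelled 1 mM melatonin alone replicate 3 had a marker sum of 11296 CPM, against 4816 and 4659 CPM in the other two of its group, and the library labelled 1 µM melatonin alone replicate 1 had 4358 CPM, against 12397 and 12426 CPM in the other two of its group. Over 10727 genes, the first correlated better with 100 µM melatonin alone (mean r 0.438) than with its own group (0.315), and the second better with 1 mM melatonin alone (0.424) than with its own group (0.265). In all, 7 of the 36 libraries correlated better with another group than with their own. Besides this pair they were the other two of 1 µM melatonin alone (0.364 and 0.370 with their own group, 0.460 and 0.464 with 0.1 µM alone), replicates 2 and 3 of LPS with 100 µM melatonin (0.451 and 0.455, against 0.460 and 0.481 with LPS and 10 µM) and replicate 3 of LPS with 0.1 µM melatonin (0.5, against 0.507 with LPS and 1 µM). Labels were kept, and the values of single genes among the 10 that compare 1 mM or 1 µM melatonin alone are also given without the pair or without the library of the group concerned.

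LPS moved 6 of the 10 genes, in opposite directions along the pathway. Ptgs2, Ptges and Ptges3, on the prostaglandin E route, rose, and Ptgs1, Alox5 and Alox5ap fell. Across all tested genes 16.5% changed with LPS, 8.39% upward and 8.09% downward. The LPS libraries lay wholly above the solvent libraries for 3 of the 10 genes and wholly below for 3, and did so for 15.7% and 15.6% of all tested genes. The median log2 fold change was −0.25 over the 10 genes and −0.02 over all tested genes. With 1 mM melatonin added to LPS, 4 of the 10 differed from LPS alone, 3 downward (Ptgs2, Ptges and Ptges3) and 1 upward (Alox5), where 7.55% of all tested genes changed, 4.71% downward and 2.84% upward. The median log2 difference was −0.11 over the 10 genes against 0.02 over all tested genes. All 4 had moved the opposite way with LPS, but both comparisons use the same 3 LPS libraries, so their directions are not independent. Because whole cultures were sequenced, fewer cells of one state and less RNA per cell cannot be told apart.

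**Figure D1:**
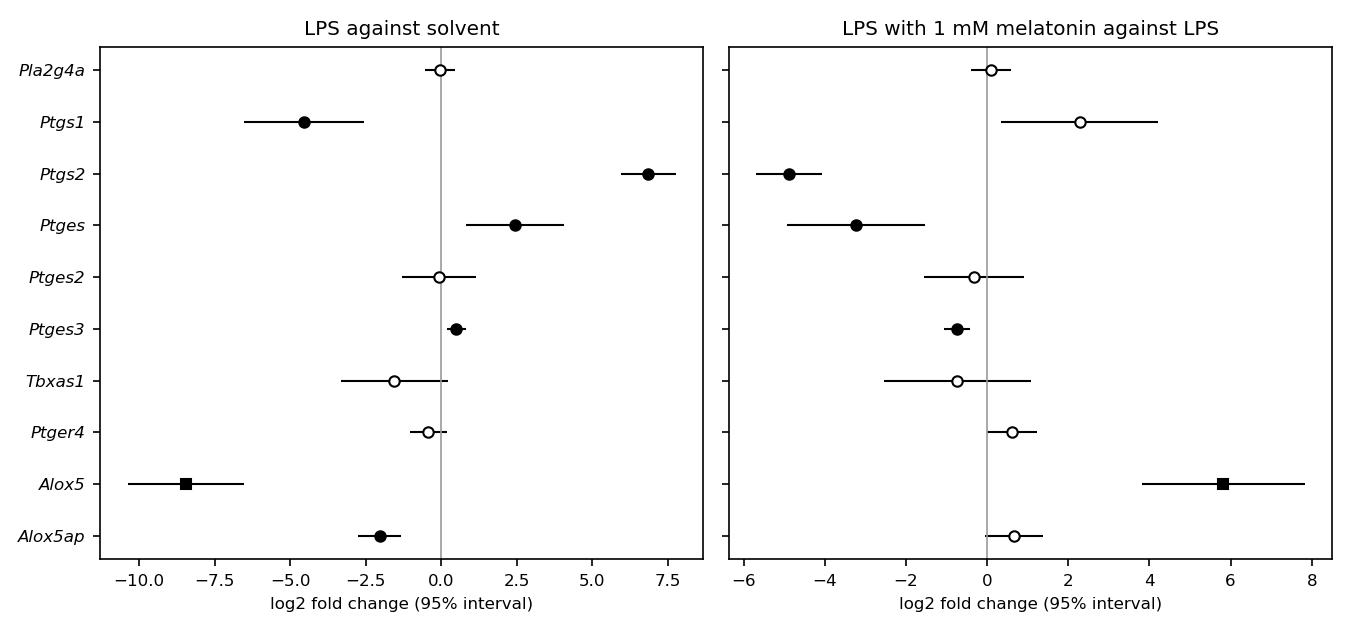
Log2 fold changes of the 10 genes with their 95% intervals (horizontal axis) for LPS against solvent on the left and LPS with 1 mM melatonin against LPS on the right, from 3 libraries per group. Filled symbols passed the adjusted threshold, and the square for Alox5 marks a fitted value that depends on the prior, since the LPS libraries held 1 count in all. Ptgs2, Ptges and Ptges3 lie right of 0 on the left and left of 0 on the right, and Alox5 does the reverse.

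Promoter windows are given for genes that moved in opposite directions with LPS, Ptgs2 and Ptges upward and Ptgs1 and Alox5 downward, so that their letters can be read beside the RNA values. Windows were matched for 9 of the 10 genes, all but Alox5ap. They come from RefSeq (GRCm38.p6), cover 250 bases before the gene start and 50 from it, and are written 5′ to 3′ on the gene's strand, with motif matches in capitals. The windows lie at chr1:150099781-150100080 (plus strand) for Ptgs2, chr2:30903248-30903547 (minus strand) for Ptges, chr2:36230176-36230475 (plus strand) for Ptgs1 and chr6:116461129-116461428 (minus strand) for Alox5. The Ptges start used by RefSeq lies inside the gene span of the deposited table.
Ptgs2: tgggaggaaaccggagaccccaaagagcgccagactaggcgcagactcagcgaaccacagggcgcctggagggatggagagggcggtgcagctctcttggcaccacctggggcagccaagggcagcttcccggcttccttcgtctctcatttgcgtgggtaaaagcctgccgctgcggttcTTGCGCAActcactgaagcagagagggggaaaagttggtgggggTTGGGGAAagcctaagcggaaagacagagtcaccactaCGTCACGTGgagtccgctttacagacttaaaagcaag
Ptges: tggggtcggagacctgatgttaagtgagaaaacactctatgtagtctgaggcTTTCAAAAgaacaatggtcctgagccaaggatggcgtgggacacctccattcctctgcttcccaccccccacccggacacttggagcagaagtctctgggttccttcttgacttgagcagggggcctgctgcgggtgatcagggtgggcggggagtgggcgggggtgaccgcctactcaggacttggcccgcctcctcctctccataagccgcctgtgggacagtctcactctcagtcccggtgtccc
Ptgs1: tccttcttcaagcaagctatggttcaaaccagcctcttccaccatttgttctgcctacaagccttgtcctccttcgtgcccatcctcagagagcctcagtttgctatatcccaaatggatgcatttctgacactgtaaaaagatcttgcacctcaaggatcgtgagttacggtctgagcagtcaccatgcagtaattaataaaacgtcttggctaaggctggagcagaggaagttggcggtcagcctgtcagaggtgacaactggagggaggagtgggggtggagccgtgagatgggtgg
Alox5: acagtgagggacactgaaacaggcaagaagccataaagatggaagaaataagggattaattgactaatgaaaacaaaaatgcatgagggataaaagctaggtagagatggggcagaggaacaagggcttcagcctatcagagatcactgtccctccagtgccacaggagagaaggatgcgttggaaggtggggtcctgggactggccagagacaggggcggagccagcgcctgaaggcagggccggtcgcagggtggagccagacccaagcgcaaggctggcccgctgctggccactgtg
The motifs searched on both strands were the cAMP response element half-site CGTCA, the E-box CACGTG, the C/EBP form TTNNGNAA, the AP-1 form TGANTCA, the TATA box TATAAA and the kappaB motif.

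Counting the gene start as position 1, with no position 0, the Ptgs2 window held CGTCA at 14 to 18 and CACGTG at 17 to 22, which share 2 bases. It also held C/EBP forms at −69 to −62 (TTGCGCAA) and −25 to −18 (TTGGGGAA). The Ptges window held a C/EBP form at −198 to −191 (TTTTGAAA on the other strand), and the Ptgs1 and Alox5 windows held no match to any of the 6 motifs. Among the genes whose windows are not printed, Ptges3, which rose with LPS, held CGTCA and a kappaB match. Matches were also found for genes not called for LPS: Ptges2 (E-box and C/EBP), Pla2g4a (C/EBP, and the TATA box in a separate window) and Tbxas1 (AP-1 and TATA box). The separate Pla2g4a window belongs to another start of the gene. Matches were thus not confined to genes that rose. Of 32817 windows of the same length, 20.8% held CGTCA, 7.15% CACGTG, 40.7% the C/EBP form, 7.81% the AP-1 form, 13.6% the TATA box and 8.46% kappaB. The matches describe letters and not bound sites, and a missing match says only that these letters were not in this window.

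The RNA of Pla2g4a, the cytosolic phospholipase A2 that releases arachidonate, was not called in any comparison with LPS given here. Pla2g4a (ENSMUSG00000056220, chr1:149829618-149961290, minus strand) had 71.5, 79.7 and 34.8 CPM in LPS libraries, against 58.5, 67.0 and 64.6 CPM in solvent libraries, so LPS values lay on both sides of solvent. It had 62.3, 46.6 and 89.9 CPM in LPS with 1 mM melatonin. The log2 fold changes were −0.03 ± 0.25 (SE) for LPS against solvent (adjusted p = 0.971) and 0.09 ± 0.25 for LPS with 1 mM melatonin against LPS (adjusted p = 0.917), with 95% intervals of −0.53 to 0.47 and −0.41 to 0.59. With LPS plus 0.1 to 100 µM melatonin its 12 libraries ran between 67.5 and 98.3 CPM with a median of 79.9 CPM, and no dose passed the threshold against LPS. Pla2g4a and Ptgs2 are neighbours, 138.74 kb apart on chromosome 1 in mm10, with 3 annotated genes between them.

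Ptgs2 (ENSMUSG00000032487, chr1:150100031-150108227, plus strand), the inducible cyclooxygenase, rose more with LPS than any other of the 10 genes. It had 722, 898 and 886 CPM in LPS libraries, against 3.56, 10.7 and 7.18 CPM in solvent libraries. Every LPS library was far above every solvent library. The rise was 116-fold, a log2 fold change of 6.86 ± 0.45 (edgeR adjusted p = 7.52e-16).

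Among the groups given LPS, the mean of Ptgs2 was lower at each melatonin dose than with LPS alone, and lowest at 1 mM. Its mean was 835 ± 98.5 CPM in LPS alone, then 436 ± 9.87 CPM at 0.1 µM, 426 ± 42.4 CPM at 1 µM, 384 ± 6.77 CPM at 10 µM, 246 ± 20.4 CPM at 100 µM and 28.7 ± 16.2 CPM at 1 mM melatonin (SD, n = 3 each). The libraries held 424, 442 and 441 CPM at 0.1 µM, 450.2, 377 and 450.2 CPM at 1 µM, 378, 382 and 391 CPM at 10 µM, 228, 241 and 268 CPM at 100 µM, and 16.4, 22.6 and 47.0 CPM at 1 mM. All 15 of these lay below the lowest LPS library, the 1 µM libraries overlapped those at 0.1 and at 10 µM, and the 100 µM and 1 mM libraries each stood apart from the dose before. At 1 mM Ptgs2 was 29.5-fold lower than in LPS alone (log2 −4.88 ± 0.40, adjusted p = 3.55e-12), and at 100 µM it was 3.40-fold lower (log2 −1.77 ± 0.34, adjusted p = 0.00225), the only one of the 10 genes called at that dose, where 1.18% of all tested genes changed.

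At the 3 lowest doses the calls for Ptgs2 depended on the libraries in the model and on the filter on low counts. The log2 differences from LPS were −0.94 ± 0.34 at 0.1 µM, −0.97 ± 0.34 at 1 µM and −1.12 ± 0.34 at 10 µM, with adjusted p = 0.182, 0.204 and 0.168 in the edgeR fit of all 36 libraries. In a fit of LPS and that dose alone the adjusted p was 1.18e-05 at 0.1 µM, 1.33e-05 at 1 µM and 1.41e-07 at 10 µM. It was 0.0353, 0.0381 and 0.0167 at these doses without the pair of libraries that went against their labels. With all 36 libraries and no filter on low counts it was 2.29e-05, 1.08e-05 and 1.11e-07 at 0.1, 1 and 10 µM. DESeq2, its size factors in edgeR and the replicate block gave no call for Ptgs2 at these doses. Leaving out any 1 library changed the edgeR call 0 times at 0.1 µM, 0 times at 1 µM and 1 time at 10 µM. Over all settings the adjusted p reached 0.381, 0.461 and 0.439. All 12 libraries at 0.1 to 100 µM lay below the 3 LPS libraries for Ptgs2 and for Ptges3, 2 of the 10 genes, as for 2.41% of all tested genes. From 0.1 to 100 µM the log2 slope per 10-fold dose was −0.26 ± 0.11 for Ptgs2, with adjusted p = 0.727 over all libraries and 9.81e-07 in a fit of those 4 groups. With no filter on low counts the adjusted p of the Ptgs2 slope was 0.00154. In the filtered edgeR fit of all libraries and in DESeq2 no slope of the 10 genes was called. In that edgeR fit 2 had an unadjusted p under 0.05, and 0.0177% of all tested genes were called.

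**Figure D2:**
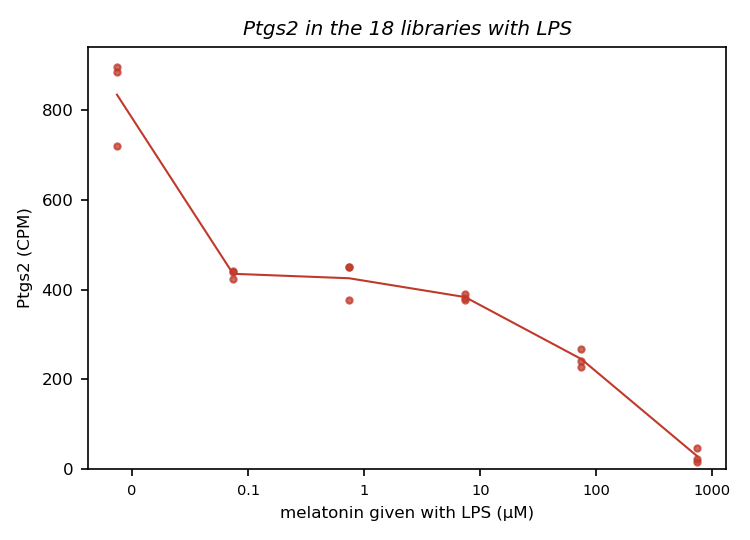
Ptgs2 level in CPM (vertical axis, linear, from 0) in the 18 libraries given LPS, against the melatonin dose in µM (horizontal axis, 0 for LPS alone). Points are libraries and the line joins group means, which run from 835 CPM without melatonin through 384 to 436 CPM at 0.1 to 10 µM to 28.7 CPM at 1 mM.

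Ptgs2 at 1 mM also differed from the next dose. LPS with 1 mM melatonin was 8.66-fold below LPS with 100 µM melatonin (log2 −3.12 ± 0.37, adjusted p = 1.33e-07). Against 1 mM melatonin alone, where Ptgs2 had 30.8, 15.2 and 3.16 CPM, the log2 difference was 0.78 ± 0.38 (adjusted p = 0.218), and libraries of both groups overlapped. That comparison was called without the library of 1 mM melatonin alone replicate 1 (log2 1.62, adjusted p = 0.00443), and without the one labelled replicate 3 it was 0.30 (adjusted p = 0.691). The effect of LPS was smaller with 1 mM melatonin than without it by a log2 interaction of −6.07 ± 0.56 (adjusted p = 6.7e-10), and −6.56 without the library labelled 1 mM melatonin alone replicate 3 (adjusted p = 1.06e-14).

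Macrophage markers moved with the same contrast. Their sum was 3666, 3480 and 2680 CPM in LPS with 1 mM melatonin, against 10608, 10781 and 10818 CPM in LPS alone. Of the 8 markers, Lyz2 fell by 2.57 on the log2 scale (adjusted p = 1.84e-07), and Adgre1, Itgam and Ptprc also fell, whereas Cd68 and Spi1 gave log2 differences of 0.07 ± 0.15 and 0.20 ± 0.16 (adjusted p = 0.873 and 0.567). Csf1r had 578 to 1569 CPM in LPS with 1 mM melatonin, overlapping the 1369.5 to 1691 CPM of LPS alone. Lyz2 alone made up 75.3 to 78.1% of the sum in LPS libraries. The third library of LPS with 1 mM melatonin also had the smallest count total and the highest TMM factor, 1.19. The part of these shifts in the changes of the 10 genes was not tested. With any 1 library left out the Ptgs2 difference kept a log2 value between −5.42 and −4.59, which does not bear on a marker shift shared by the whole group.

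An antisense gene, Ptgs2os, ends 67 bases before Ptgs2, and a noncoding neighbour, Ptgs2os2, lies in the same region; both were looked at after their values were seen. Ptgs2os had at most 3.69 CPM in any library. Ptgs2os2 had 35.2, 45.6 and 36.3 CPM in LPS libraries, against 0.679, 8.63 and 5.09 CPM in solvent libraries, and 9.49, 7.33 and 11.4 CPM in LPS with 1 mM melatonin. Its log2 fold changes were 3.01 ± 0.66 for LPS against solvent (adjusted p = 0.000572) and −2.06 ± 0.62 for LPS with 1 mM melatonin against LPS (adjusted p = 0.0319). Whether reads were counted by strand is not given in the sources used here, so reads from overlapping or antisense genes cannot be told apart.

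Ptgs1 (ENSMUSG00000047250, chr2:36230426-36252272, plus strand), the other cyclooxygenase, moved against Ptgs2. It had 1.36, 0 and 0.462 CPM in LPS libraries, against 16.0, 9.41 and 18.3 CPM in solvent libraries, with every LPS library below every solvent library. The fall was 23.3-fold, a log2 fold change of −4.54 ± 0.98 (adjusted p = 0.000539) that rests on 12 counts in the LPS libraries together. Ptgs1 had 3.37, 2.16 and 3.59 CPM in LPS with 1 mM melatonin, above each LPS library, yet the log2 difference of 2.29 ± 0.96 was not called (adjusted p = 0.16). These libraries lay below those of 1 mM melatonin alone, at 9.04 to 22.1 CPM (log2 −2.34, edgeR adjusted p = 0.0789, not called). Without the pair against their labels that value was −2.61 (0.0668). Ptgs1 was called there by DESeq2 (0.0274), in a fit of the compared groups (0.0278) and with no filter on low counts (0.0191). Across the 18 libraries with LPS it stayed between 0 and 3.59 CPM, and across the 18 without LPS between 5.71 and 22.1 CPM. At 10 µM with LPS only 2 counts were found, and LPS alone exceeded that group by a ratio of 5.59 with a counting interval of 1.24 to 51.4. Such intervals, and floors, cover counting error only.

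The prostaglandin E synthases split by gene. Ptges (ENSMUSG00000050737, chr2:30889471-30929863, minus strand), the inducible membrane synthase usually paired with Ptgs2, had 32.9, 23.6 and 21.3 CPM in LPS libraries, against 2.88, 2.82 and 8.53 CPM in solvent libraries. The groups did not overlap, and the rise was 5.42-fold (log2 2.44 ± 0.81, adjusted p = 0.0293). That call was lost without solvent replicate 1, solvent replicate 2 or LPS replicate 1 (adjusted p = 0.124, 0.123 and 0.0838) and with DESeq2 (0.111). Ptges had 5.51, 0 and 2.79 CPM in LPS with 1 mM melatonin, all below LPS alone, a 9.36-fold fall (log2 −3.23 ± 0.85, adjusted p = 0.0105) that was lost without LPS with 1 mM melatonin replicate 2 (adjusted p = 0.0567).

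At the lower melatonin doses with LPS, Ptges had values near those of LPS alone. The 12 libraries of LPS with 0.1 to 100 µM melatonin held 14.5 to 50.3 CPM with a median of 26.9 CPM, overlapping the 21.3 to 32.9 CPM of LPS alone, and no dose was called, with log2 differences from −0.09 at 100 µM to 0.51 at 10 µM. At 1 mM Ptges was 8.76-fold below the 100 µM dose with LPS (log2 −3.13 ± 0.84, adjusted p = 0.019), a call lost with DESeq2 (0.056), in a fit of the compared groups (0.0608) and without any of 3 single libraries (0.0669 to 0.0995). The interaction of LPS with 1 mM melatonin for Ptges was −0.67 ± 1.29 (adjusted p = 0.926), with a 95% interval of −3.28 to 1.94, and −1.23 without the pair (adjusted p = 0.745).

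Ptges3 (ENSMUSG00000071072, chr10:128058954-128077272, plus strand), a cytosolic prostaglandin E synthase better known as a co-chaperone of the heat shock protein Hsp90, was the most abundant of the 10 genes. It had 3364, 3358 and 3410.5 CPM in LPS libraries, against 2507, 2307 and 2354 CPM in solvent libraries. The rise was 1.41-fold with no overlap (log2 0.50 ± 0.16, adjusted p = 0.0218), and it was lost without solvent replicate 2, solvent replicate 3 or LPS replicate 3 (adjusted p = 0.0783, 0.0683 and 0.057).

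In LPS with 1 mM melatonin Ptges3 had 2227, 2794 and 1080.1 CPM, all below LPS alone but widely spread, with the low value in the library of smallest total. The difference of −0.73 ± 0.16 in log2 (adjusted p = 0.00152) was not called when the fit held these 2 groups alone (adjusted p = 0.154). At 0.1, 1, 10 and 100 µM with LPS the log2 differences were −0.43, −0.43, −0.42 and −0.43, none called over all libraries. In fits of the compared groups the adjusted p was 0.000224, 0.000152, 2.72e-05 and 0.000123. Without LPS with 1 mM melatonin replicate 3, a library of neither group compared, the edgeR adjusted p was 0.00515, 0.00692, 0.0121 and 0.00481. Without the pair of libraries that went against their labels none was called (0.105, 0.132, 0.195 and 0.111). Ptges3 has a close pseudogene, Ptges3-ps, which had 133, 171 and 173 CPM in LPS libraries, against 111, 118 and 137 CPM in solvent libraries, so the split of reads between them is uncertain. Against LPS, edgeR called Ptges3-ps lower at 0.1, 1, 10 and 100 µM (adjusted p = 0.0258, 0.00554, 0.0312 and 0.00507). The log2 differences were −0.79, −0.98, −0.86 and −0.94. At 1 mM it was not called (log2 −0.48, adjusted p = 0.141). The part of these reads in the Ptges3 values was not tested.

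Ptges2 (chr2:32395896-32405772, plus strand), the third prostaglandin E synthase, had 3.33, 8.87 and 17.7 CPM in LPS libraries, against 9.50, 16.5 and 5.39 CPM in solvent libraries, and 7.04, 3.02 and 14.2 CPM in LPS with 1 mM melatonin. The groups overlapped throughout. The log2 fold change for LPS was −0.07 ± 0.60 (adjusted p = 0.977), with a 95% interval of −1.29 to 1.15, which allows a change of more than 2-fold in either direction.

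Tbxas1 (chr6:38875404-39084585, plus strand), thromboxane synthase, had 10.6, 0 and 0.77 CPM in LPS libraries, against 9.84, 5.96 and 17.7 CPM in solvent libraries. LPS replicate 1 stood with the solvent libraries and the other two lay below them. The log2 fold change was −1.55 ± 0.88 (adjusted p = 0.252), and without LPS replicate 1 it was −4.81 (adjusted p = 0.0015). Tbxas1 overlaps the more abundant Hipk2 (chr6:38694390-38876165) only at the start of the Tbxas1 span, and antisense genes with 1 and 7 counts in total. Its reads in these stretches are thus uncertain. The spans of Ptger4 (Ttc33), Ptges (Gm13400), Ptgs1 (Gm43621), Alox5ap (Gm19719) and Pla2g4a (n-R5s219) also overlap other annotated genes. The same doubt applies to the reads of those genes.

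Ptger4 (chr15:5206661-5244187, minus strand), a prostaglandin E receptor that raises cAMP, was not called for LPS, with 30.8, 39.7 and 26.0 CPM in LPS libraries, against 43.6, 50.5 and 35.5 CPM in solvent libraries (log2 −0.42 ± 0.31, adjusted p = 0.398). Ptger4 had 51.7, 51.7 and 43.3 CPM in LPS with 1 mM melatonin. These were above all 15 libraries of LPS with 0 to 100 µM melatonin, which ran from 12.4 to 39.7 CPM with a median of 24.1 CPM. Against LPS alone the log2 difference of 0.60 ± 0.31 was not called (adjusted p = 0.269), and against LPS with 100 µM melatonin, at 20.2, 12.4 and 31.7 CPM, Ptger4 was 2.28-fold higher (log2 1.19 ± 0.31, adjusted p = 0.0155). Between these 2 doses 3 of the 10 genes were called, where 4.93% of all tested genes changed, and the Ptger4 call was lost without LPS with 100 µM melatonin replicate 1 or 2 (adjusted p = 0.0756 and 0.157) and in a fit of the compared groups (0.0778).

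On the leukotriene branch, Alox5 (ENSMUSG00000025701, chr6:116410077-116461178, minus strand), the lipoxygenase that makes the first leukotriene precursor, all but disappeared with LPS. It had 0, 0.145 and 0 CPM in LPS libraries, 1 count in all, against 31.2, 25.3 and 16.6 CPM in solvent libraries. The fall was called (adjusted p = 4.04e-09), and the ratio of solvent to LPS was 481 with a counting interval of 85.8 to 19025. Of the 18 libraries with LPS none had more than 4.98 CPM of Alox5, and all 18 without LPS had at least 4.42 CPM.

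With 1 mM melatonin added, Alox5 was higher than with LPS alone but below melatonin alone. LPS with 1 mM melatonin had 4.13, 2.59 and 4.98 CPM, all above the LPS libraries, and Alox5 rose against LPS (adjusted p = 6.48e-05), with a ratio of 75.5 and a counting interval of 13.1 to 3025. It remained 4.85-fold below 1 mM melatonin alone, at 21.2, 16.9 and 18.5 CPM (log2 −2.28 ± 0.60, adjusted p = 0.009), a call lost without LPS with 1 mM melatonin replicate 2 (0.0592) and kept without the library labelled 1 mM melatonin alone replicate 3 (0.0184). Alox5ap was the other of 2 genes called in that comparison, where 9.62% of all tested genes changed.

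At lower doses with LPS, Alox5 stayed within 0 to 3.01 CPM. It had 0 counts in all 3 libraries at 0.1 µM, 0.904, 0.926 and 3.01 CPM at 1 µM, 0.481, 0.533 and 1.19 CPM at 10 µM and 2.10, 0 and 0.606 CPM at 100 µM. Only 1 µM was called against LPS (adjusted p = 0.0241), as the 1 gene of 10 at that dose, where 0.612% of all tested genes changed, and that call was lost without LPS replicate 1, LPS replicate 3 or LPS with 1 µM melatonin replicate 3 (adjusted p = 0.121, 0.14 and 0.242). At 1 µM the ratio to LPS was 31.9 with a counting interval of 5.31 to 1298. The interaction of LPS with 1 mM melatonin was called for Alox5 too (adjusted p = 0.00146, and 0.00281 without the library labelled 1 mM melatonin alone replicate 3), so 2 of the 10 genes, Ptgs2 and Alox5, had an LPS effect that differed with 1 mM melatonin, where 1.69% of all tested genes did.

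Alox5ap (chr5:149264767-149288153, plus strand), the membrane protein that presents arachidonate to Alox5, fell with LPS as well. It had 16.5, 5.38 and 13.9 CPM in LPS libraries, against 62.6, 45.3 and 38.6 CPM in solvent libraries, with no overlap. The fall was 4.10-fold (log2 −2.03 ± 0.35, adjusted p = 2.1e-05). In LPS with 1 mM melatonin Alox5ap had 12.4, 8.48 and 36.3 CPM, where the high value came from the library of smallest total, and the difference from LPS was not called (log2 0.66 ± 0.35, adjusted p = 0.3). It was 3.01-fold below 1 mM melatonin alone, at 60.4, 45.5 and 64.3 CPM (log2 −1.59 ± 0.34, adjusted p = 0.00104, 0.0661 in a fit of the compared groups and 0.0052 without the library labelled 1 mM melatonin alone replicate 3).

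Alox5ap was above LPS alone in every library of the 4 lower doses. The 12 libraries of LPS with 0.1 to 100 µM melatonin held 16.7 to 31.7 CPM with a median of 24.0 CPM, and the highest LPS library held 16.5 CPM. The same non-overlap upward was seen for 1 of the 10 genes and 2.26% of all tested genes. At 10 µM, with 31.4, 29.1 and 31.7 CPM, the log2 difference from LPS was 1.37 ± 0.35, not called by edgeR over all libraries (adjusted p = 0.0709) and called by DESeq2 (0.0256) and in a fit of the compared groups (0.044). Leaving out LPS with 1 mM melatonin replicate 2 or 3 also gave an edgeR call (adjusted p = 0.0305 and 0.00886). Over all settings the adjusted p reached 0.363. edgeR called 0 of the 10 genes at 10 µM, where 0.371% of all tested genes changed, 4 had an unadjusted p under 0.05 and DESeq2 called 1. At 0.1 µM with LPS edgeR and DESeq2 called 0 of the 10, 3 had an unadjusted p under 0.05, and 1.36% of all tested genes changed.

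**Figure D3:**
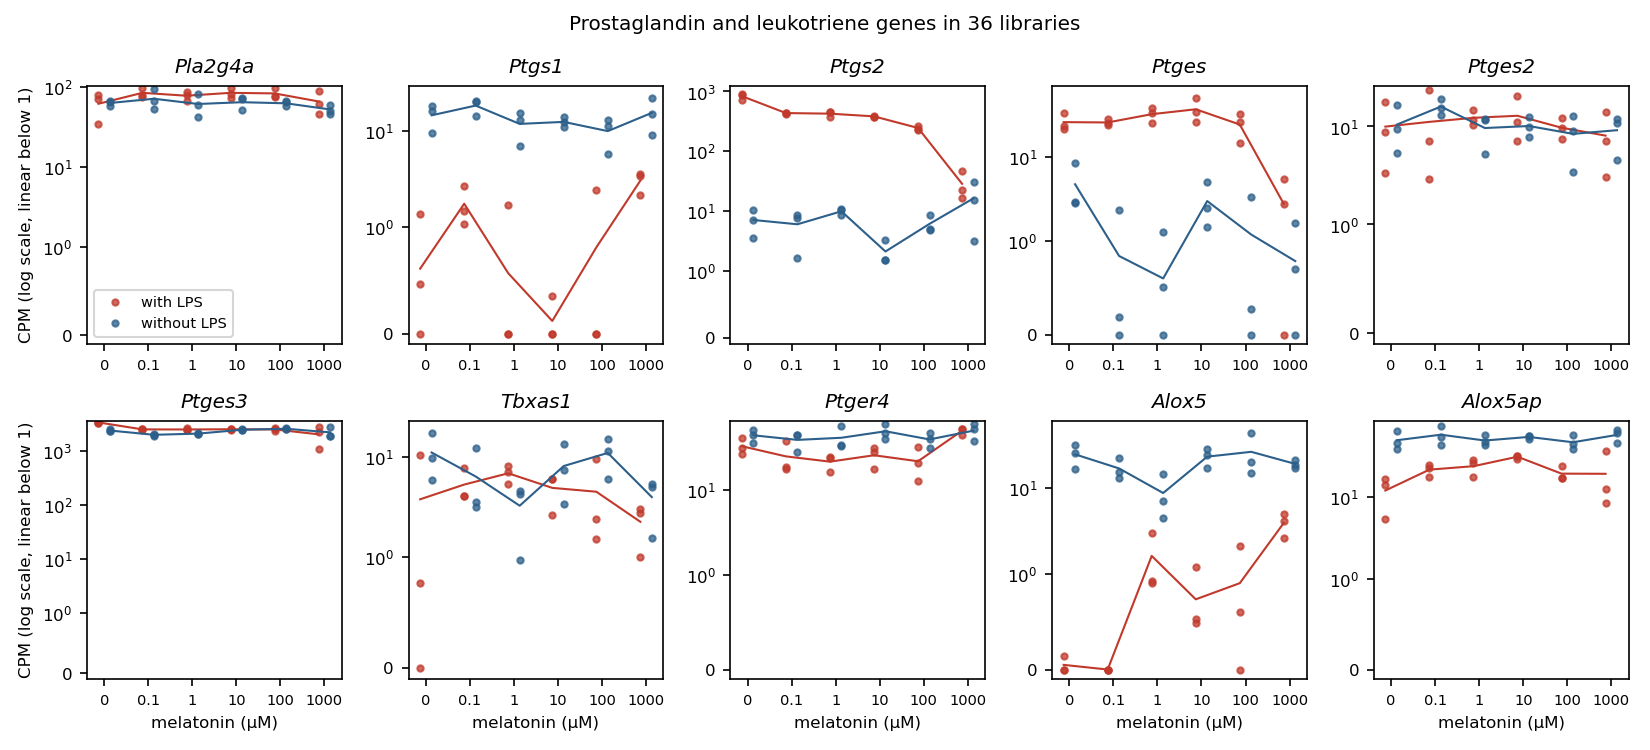
Levels of the 10 genes in CPM (vertical axis, log scale, linear below 1) in all 36 libraries against the melatonin dose in µM (horizontal axis, 0 for no melatonin), with LPS in red and without LPS in blue. Points are libraries and lines join group means. Ptgs2 and Ptges run high with LPS until 1 mM, Ptgs1, Alox5 and Alox5ap run lower with LPS, and the Pla2g4a and Ptges2 points with and without LPS overlap at most doses.

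Melatonin alone moved none of the 10 genes past the threshold at any dose. At 0.1, 1, 10 and 100 µM and 1 mM edgeR called 0 of 10 each time, and DESeq2 called 0 of the 5, 8, 10, 10 and 5 to which it gave an adjusted p, while 1, 2, 1, 1 and 2 of the genes had an unadjusted p under 0.05, and 0.341%, 0.147%, 0.0824%, 0.0824% and 0.418% of all tested genes changed. The shares at 1 µM and 1 mM are 25 and 71 genes, and the counts were 92 and 485 without the pair of libraries against their labels, 66 without the library labelled 1 µM replicate 1 and 347 without that labelled 1 mM replicate 3. With any 1 library left out they ran from 3 to 66 at 1 µM and from 10 to 347 at 1 mM. Without the pair, 1 of the 10 genes was called at 10 µM and 1 at 1 mM, Ptgs2 both times. These 5 comparisons share the solvent libraries. Ptgs2 had 7.77, 8.69 and 1.68 CPM at 0.1 µM, 10.5, 10.9 and 8.52 CPM at 1 µM, 1.55, 1.55 and 3.26 CPM at 10 µM and 8.62, 4.98 and 4.83 CPM at 100 µM. The 10 µM libraries all lay below the solvent range of 3.56 to 10.7 CPM, and at 0.1, 1 and 100 µM some or all libraries lay within it. The log2 fold change at 10 µM was −1.77 ± 0.53 (adjusted p = 0.375), with 0.0441 without the pair and 2.1e-09 with no filter on low counts. It was not called with any 1 library left out, and it rests on 46 counts at 10 µM and 137 in solvent.

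The Ptgs2 comparison of 1 mM melatonin alone with solvent depended on single libraries, and it includes the library that went against its label. The libraries labelled 1 mM held 30.8, 15.2 and 3.16 CPM, and the third, the one in question, lay just under the solvent range while the other two lay above it. Over the 3 libraries the log2 fold change was 1.19 ± 0.42 (adjusted p = 0.28), and without that library it was 1.68 (adjusted p = 0.00252). With any 1 library left out it ran from 0.36 to 1.68, and the adjusted p over all settings reached 0.89. Ptges, by contrast, had 0 to 5.05 CPM with a median of 0.705 CPM over the 15 libraries of melatonin alone, against 2.88, 2.82 and 8.53 CPM in solvent libraries. Its log2 fold changes at 0.1 µM, 1 µM and 1 mM were −2.47, −2.96 and −2.56, not called over all libraries (adjusted p = 0.366, 0.338 and 0.319) and called with no filter on low counts (0.0135, 0.00174 and 0.00518). Without the pair the 1 µM and 1 mM values were −2.37 and −1.99 (adjusted p = 0.455 and 0.331). Alox5 at 1 µM had 4.42, 14.6 and 6.99 CPM, all below the solvent libraries, and was not called (log2 −1.49 ± 0.58, adjusted p = 0.46). The lowest came from the library that went against its label, and without the pair the value was −1.17 (adjusted p = 0.641).

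Per transcript length, in the FPKM (fragments scaled by gene length and library size) of the authors, the make-up of the pathway changed with treatment. In LPS libraries Ptges3 led at 1484 ± 11.1 FPKM, followed by Ptgs2 at 178 ± 20.9 FPKM, and in solvent libraries Ptges3 at 1061 ± 50.4 FPKM was followed by Alox5ap at 33.9 ± 8.69 FPKM (SD, n = 3 each). Ptgs1 exceeded Ptgs2 in solvent libraries, at 3.69 ± 1.17 FPKM against 1.53 ± 0.758 FPKM of Ptgs2. In LPS libraries Ptgs1 was at 0.153 ± 0.174 FPKM, far below Ptgs2. In LPS with 1 mM melatonin Ptgs2 was at 6.05 ± 3.38 FPKM, still above Ptgs1 at 0.757 ± 0.189 FPKM. Of the prostaglandin E synthases other than Ptges3, Ptges was at 6.42 ± 1.53 FPKM in LPS libraries, against 1.19 ± 0.821 FPKM in solvent libraries, whereas Ptges2 was at 1.92 ± 1.39 FPKM in LPS libraries, against 2.03 ± 1.08 FPKM in solvent libraries.

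**Figure D4:**
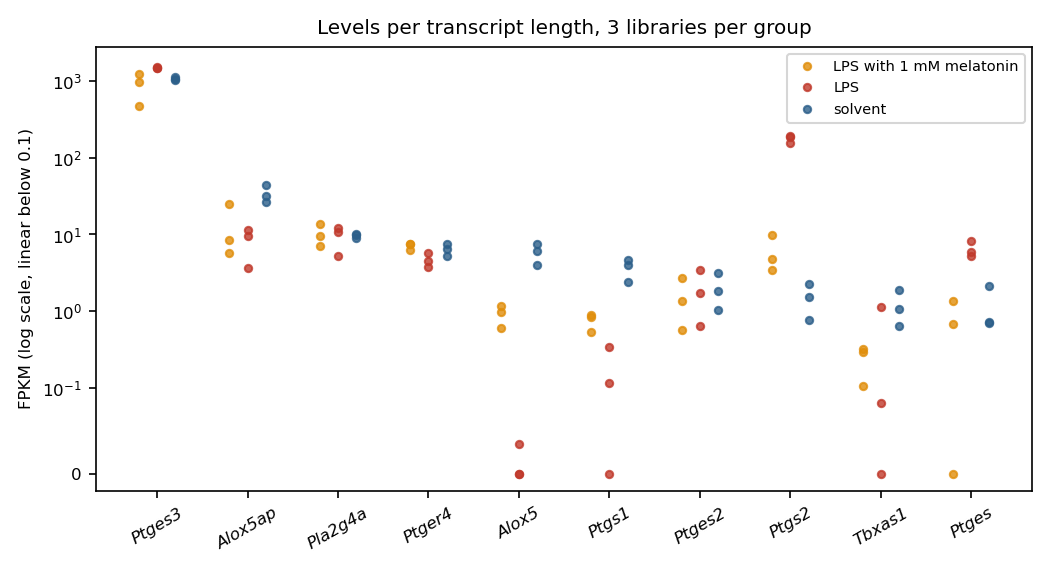
FPKM of the 10 genes (vertical axis, log scale, linear below 0.1) in each library of LPS with 1 mM melatonin, LPS and solvent, with genes ordered by their solvent level. Ptgs2 is eighth by solvent level at 1.53 FPKM and second by LPS level at 178 FPKM.

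Over the 12 group means of log2 CPM, which include several groups with the same LPS treatment, Ptgs2 correlated with Ptges at r = 0.882 and with Alox5 and Ptgs1 at −0.956 and −0.935. Alox5 correlated with Ptgs1 at 0.874 and with Alox5ap at 0.846. These values describe how LPS divides the groups and carry no test. The genes closest in pattern to Ptgs2 over the same 12 means were Sod2 (r = 0.987), the mitochondrial superoxide dismutase, Il1b (0.987), the cytokine interleukin 1 beta, and Eif4a1 (0.986), a translation initiation helicase. Those closest to Ptges were Hivep3 (0.974), Cars (0.972) and Lasp1 (0.969), those closest to Alox5 were Kmt5c (0.984), Shcbp1 (0.978) and E2f8 (0.976), those closest to Ptgs1 were Cds1 (0.982), Rnase4 (0.981) and Paqr7 (0.978), and those close to Alox5ap included Tnfsf13b (0.972) and Gpr155 (0.963). For Pla2g4a they were Txndc5 (0.947), Aprt (0.944) and Ppfibp1 (0.936), for Ptges3 Cdkn2aipnl (0.952), Tln1 (0.939) and Tnfaip8 (0.927), and for Ptger4 Nckipsd (0.947), Pag1 (0.939) and Dennd1b (0.939). Ptges2 and Tbxas1 came closest to Fam219b (0.943) and Trappc5 (0.844).

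The rest of the eicosanoid pathway was described with 51 further genes, of which 50 were matched and 20 passed the filter; the highest group mean among the 30 that did not was 1.78 CPM. With LPS 4 of the 20 rose and 3 fell, where 8.39% and 8.09% of all tested genes did, with a median log2 fold change of −0.31. With 1 mM melatonin added to LPS 3 fell and 1 rose against LPS, where 4.71% and 2.84% of all tested genes did, with a median of 0.06 against 0.02 over all tested genes. For 1 mM melatonin alone edgeR called 0 of the 20, DESeq2 called 0 of the 6 to which it gave an adjusted p, and 1 had an unadjusted p under 0.05 in edgeR, where 0.418% of all tested genes changed.

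Upstream of the cyclooxygenases, Pla2g5, a secreted phospholipase A2, had 14.2, 22.7 and 27.3 CPM in LPS libraries, against 3.05, 0.627 and 1.5 CPM in solvent libraries (log2 3.63 ± 0.66, adjusted p = 4.54e-05). Acsl4, which attaches coenzyme A to arachidonate so that it can be stored in membranes, had 603, 564 and 697 CPM in LPS libraries, against 289, 334 and 318 CPM in solvent libraries (log2 0.99 ± 0.14, adjusted p = 2.48e-07). It had 291, 387 and 259.9 CPM in LPS with 1 mM melatonin, all below LPS alone (log2 −0.99 ± 0.14, adjusted p = 1.01e-06). For Pla2g5 the difference of −1.07 ± 0.58 between LPS with 1 mM melatonin and LPS was not called (adjusted p = 0.307).

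Among prostanoid genes beyond the 10, Hpgds, the haematopoietic prostaglandin D synthase, fell with LPS to 101, 170.0 and 183 CPM, against 331, 298 and 311 CPM in solvent libraries (log2 −1.05 ± 0.16, adjusted p = 1.4e-06). It stayed at 133, 130.2 and 112 CPM in LPS with 1 mM melatonin, not called against LPS (log2 −0.27 ± 0.16, adjusted p = 0.344). Ptgir, the prostacyclin receptor, had 49.1, 41.9 and 57.3 CPM in LPS libraries, against 7.64, 7.84 and 7.33 CPM in solvent libraries (log2 2.70 ± 0.45, adjusted p = 1.21e-05). Ptgir was at 9.18, 6.04 and 7.97 CPM in LPS with 1 mM melatonin, below every LPS library (log2 −2.68 ± 0.45, adjusted p = 5.07e-05).

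Past Alox5, Lta4h, which makes leukotriene B, had 18.9, 11.9 and 15.6 CPM in LPS libraries, against 37.0, 25.6 and 34.0 CPM in solvent libraries (log2 −1.06 ± 0.28, adjusted p = 0.00535, and 0.0584 without LPS replicate 2). Lta4h had 27.7, 37.4 and 34.9 CPM in LPS with 1 mM melatonin, above each LPS library (log2 1.11 ± 0.28, adjusted p = 0.00798, then 0.0759 without LPS replicate 2 and 0.0633 in a fit of the compared groups). Cysltr1, a receptor for cysteinyl leukotrienes, had 3.33, 15.0 and 6.01 CPM in LPS libraries, against 23.4, 32.8 and 22.4 CPM in solvent libraries (log2 −1.69 ± 0.48, adjusted p = 0.00958, with 0.0907 without LPS replicate 1 and 0.0585 without LPS replicate 3). Abcc1, an exporter of leukotriene C, went the other way, with 328, 334 and 317 CPM in LPS libraries, against 77.7, 57.2 and 95.3 CPM in solvent libraries (log2 2.09 ± 0.15, adjusted p = 1.34e-14). In LPS with 1 mM melatonin Abcc1 had 152, 159.5 and 185 CPM, between the LPS and solvent libraries (log2 −0.98 ± 0.15 against LPS, adjusted p = 5.15e-06).

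**Figure D5:**
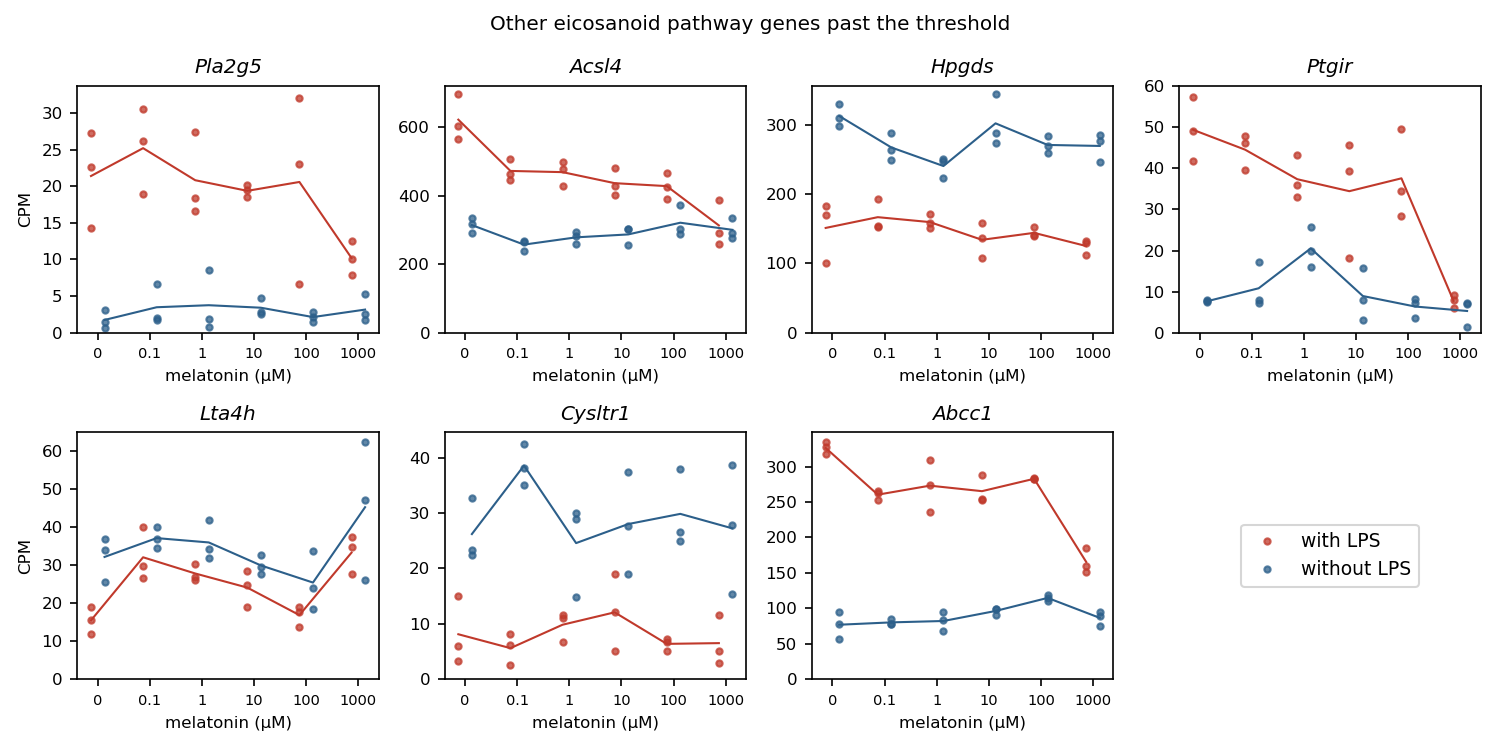
Levels in CPM (vertical axes, linear, from 0) of the 7 further pathway genes that passed the threshold for LPS or for 1 mM melatonin with LPS, in all 36 libraries against the melatonin dose in µM (horizontal axes), with LPS in red and without LPS in blue. Points are libraries and lines join group means. Ptgir falls to 6.04 to 9.18 CPM at 1 mM with LPS, and Hpgds stays low with LPS at every dose.

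By role, cyclooxygenases gave 1 rise and 1 fall with LPS, prostaglandin E synthases 2 rises of 3 tested, and the leukotriene synthesis genes 3 falls of 6 tested (Alox5, Alox5ap and Lta4h), where 8.39% of all tested genes rose and 8.09% fell. None of the 5 lipoxygenases outside the leukotriene branch passed the filter. With 1 mM melatonin added to LPS, 2 of the 6 leukotriene synthesis genes rose against LPS (Alox5 and Lta4h), and 2 of the 3 prostaglandin E synthases fell, where 2.84% of all tested genes rose and 4.71% fell. The LPS libraries are shared by both sets of counts.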

How the data were processed

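Whole-cell RNA of RAW 264.7 cells was sequenced in 36 libraries. The authors deposited a table of raw counts per gene and a table of FPKM with gene symbols. Adapters were trimmed with cutadapt, reads were counted with featureCounts and the build was mm10, per the submitters' processing notes; the aligner, versions, annotation release, strand setting and FPKM gene lengths are not given in the sources used here. Counts were tested with edgeR 4.0.16 (R 4.3.3, limma 3.58.1): filterByExpr kept 16988 of 53465 genes (17485 were 0 in every library), TMM factors were 0.914 to 1.19, and a quasi-likelihood fit held 12 group means. Adjusted p-values are Benjamini-Hochberg over all tested genes, with a threshold of 0.05. CPM uses TMM-scaled totals. FPKM served only to set levels of different genes side by side. Alternatives were DESeq2 1.42.0, its size factors in edgeR, no filter, only the groups compared, a replicate block and leaving out libraries. The fit was tested on simulated data with 200 changed genes. Tables were handled with Python 3.11.15, pandas 2.3.3, numpy 2.4.6 and scipy 1.17.1.

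The 10 genes, the further pathway list, the marker lists and the tests were chosen with earlier results of these data known. All 10 were named, with those pathway genes past the threshold for LPS, for 1 mM melatonin with LPS or for 1 mM melatonin alone, or at 10 FPKM or more in the highest group. Genes of like pattern were the 3 with the highest correlation, of which the first alone is named for Ptges2 and Tbxas1; 1 gene close to Alox5ap is not reported here. Same-numbered libraries of compared groups did not deviate together (r from −0.035 to 0.034), so replicate numbers were not used as pairs.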

Additional observations from a re-analysis of the deposited data

Results flagged for a closer look

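For 4 of the genes described, the effect of LPS differed with and without 1 mM melatonin by a test of the difference itself, the interaction term of the edgeR fit. The log2 interaction was −6.07 for Ptgs2, 6.19 for Alox5, −0.92 for Acsl4 and −1.15 for Abcc1. The Alox5 value depends on the prior count, since the LPS libraries held 1 count, and the Acsl4 and Abcc1 calls were lost in a fit of the 4 groups concerned (adjusted p = 0.0945 and 0.0525). Without the pair of libraries against their labels the values were −6.56, 6.17, −0.84 and −1.13.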

How the results depend on the processing

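The count of the 10 genes called was 6 for LPS and 4 for LPS with 1 mM melatonin against LPS, and stayed within 1.5 times of that under DESeq2, its size factors in edgeR, no filter, only the groups compared and without the pair of libraries against their labels. With no filter it was 2, 3, 3 and 2 for 0.1, 1, 10 and 100 µM melatonin with LPS, 4 for LPS with 1 mM melatonin against 1 mM alone, 1 for the dose slope, and for melatonin alone 2 at 1 mM and 1 each at 10, 1 and 0.1 µM. With only the groups compared it was 2, 2, 3 and 2 for 0.1, 1, 10 and 100 µM with LPS, 1 for 0.1 µM alone, 1 for 1 mM against 100 µM with LPS and 1 for the slope. Without the pair of libraries it was 1, 2 and 2 for 0.1, 1 and 10 µM with LPS, and 1 each for 1 mM and 10 µM alone; DESeq2 gave 1 at 10 µM with LPS. Leaving out 1 library gave 4 to 6 for LPS, 3 to 4 at 1 mM, 1 to 2 at 100 µM, 0 to 2 for both 10 and 1 µM and 0 to 1 for 0.1 µM with LPS, 0 to 1 for 1 mM alone, 0 to 0 for the other doses alone and the slope, 1 to 3 for 1 mM with against without LPS, 2 to 3 for the interaction and 1 to 4 for 1 mM against 100 µM. The causes were not tested.

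With the replicate block, the counts of the 10 genes were 6 for LPS and 4 for 1 mM with LPS, and every other count of the 10 also equalled that without the block; over all tested genes LPS gave 2778 calls, against 2800 without the block. The replicate numbers are shared by the labels only.

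Over all tested genes, calls at 0.1, 1, 10 and 100 µM and 1 mM with LPS were 231, 104, 63, 201 and 1282, by DESeq2 428, 280, 152, 379 and 1608, with no filter 309, 187, 129, 308 and 1242, and with only the groups compared 508, 415, 374, 626 and 558. For melatonin alone at the same doses they were 58, 25, 14, 14 and 71, by DESeq2 200, 97, 41, 29 and 171, with no filter 137, 89, 49, 40 and 151, and with only the groups compared 338, 0, 62, 27 and 0. Among single genes, 54 values gained and 78 lost a call over all settings, and 2552 kept their side and direction. Low counts limit Ptgs1, Tbxas1 and Alox5 in LPS libraries most.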
